A study of Saccharomyces cerevisiae with 2 samples.

Results

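The RNA crosslinked to Sni445, a nucleolar yeast protein of ribosome assembly, was read on the stretches between annotated genes. The intergenic regions described here are all those listed under the 1000 limit in either library, except the 6 that adjoin or cover the snoRNA genes snR4 and snR45 (INT_0_2876 to INT_0_2879, INT_0_9028 and INT_0_9029). They number 2682, of 2687 listed intergenic regions and 5758 listed features of any kind. The regions carry numbers and no names or coordinates.

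Cross-linking and analysis of cDNA (CRAC) was done on 2 cultures, 1 library each. In one strain, Sni445 was expressed from its own chromosomal locus with a C-terminal HTP tag (a His tag, a TEV protease site and protein A), and the other was an untagged wild-type strain that served as the negative control. Both were grown without tryptophan in glucose medium to an OD of 0.6, crosslinked for 100 s, purified in successive steps and amplified with 16 PCR cycles. With 1 library per strain there is no replicate check and no test: the 95% intervals cover counting error only, and since PCR copies are not independent molecules they are narrower than the real error.

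CRAC ties an RNA to the protein that it touched when light crosslinked them, so a read on an intergenic region can come from an unannotated transcript, from an extension of a neighbouring RNA or from reads of a gene that the annotation also assigns to the region. An untagged strain gives the RNA that sticks without the bait, and abundant RNAs such as rRNA, tRNA and snoRNA are known to dominate it. A read is counted in sense where it has the strand of the feature and in antisense where it has the other strand, and a read that overlaps several features is counted on each. The number of distinct cDNAs is given per feature without a direction. Counts are given for reads under a length limit of 1000 and, as a part of these, under a limit of 30.

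Mapped reads numbered 21867727 with Sni445-HTP against 12654405 in the control. The summed sense counts were 26984818 and 22960662, more than the mapped reads. The Sni445-HTP library consisted almost wholly of snR4 and snR45: without them and the 6 regions left out, 795309 sense counts remained, against 22537542 in the control.

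The intergenic regions held few sense reads with Sni445-HTP and many in the control. They took 33979 sense reads in the Sni445-HTP library, which is 0.126% of all sense counts (95% interval 0.125 to 0.127), and 1432106 in the control, which is 6.24% (6.23 to 6.25). The ratio of these shares was 0.0202 (0.0200 to 0.0204). When snR4, snR45 and the regions left out were taken from both totals, the shares were 4.27% and 6.35% and their ratio 0.672 (0.665 to 0.680). The direction was the same under either total, while the size of the difference followed the 2 snoRNAs in the denominator.

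Most regions were listed through antisense reads alone. With Sni445-HTP, 2434 regions were listed, of which 878 (36.1%) had at least 1 sense read and 1556 had antisense reads only. In the control, 1195 were listed, of which 485 (40.6%) had a sense read and 710 had antisense reads only. Regions with sense reads and antisense reads at once numbered 226 and 130. Summed over all regions, there were 9.56 antisense reads for each sense read with Sni445-HTP (324693 antisense reads) and 7.85 in the control (11238020).

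Sense reads were thinly spread over many regions and dense on a few. Where any was present, the median was 4 sense reads with Sni445-HTP against 10 in the control, and 198 and 83 regions had a single one. At least 100 sense reads were found on 31 regions with Sni445-HTP against on 135 in the control. The 5 regions with most sense reads held 66.0% of all intergenic sense reads with Sni445-HTP against 74.1% in the control. Sense reads occurred in both libraries on 287 regions, which is 32.7% of those with sense reads in Sni445-HTP and 59.2% of those in the control. The 591 regions with sense reads in the Sni445-HTP library alone had a median of 3, and the 198 of the control alone had a median of 7. Of all features, 5278 were listed with Sni445-HTP against 2333 in the control, and 1044 had sense reads in both. The overlap is therefore not given as a trait of the intergenic regions.

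**Figure D1:**
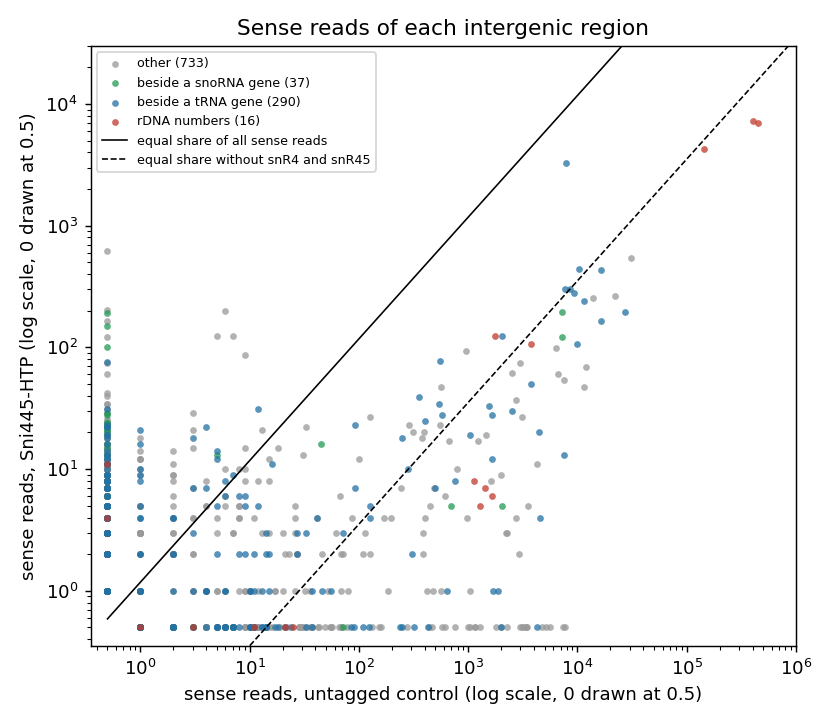
Sense reads of each intergenic region in the untagged control (x axis) and with Sni445-HTP (y axis), both on log scales with 0 drawn at 0.5; each point is a region, coloured by the gene it lies beside. Nearly all regions rich in control reads lie below the solid line of equal shares and scatter about the dashed line of equal shares without snR4 and snR45, and the points at the left edge had no control sense read.

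Although the regions have no coordinates, their antisense counts gave many of them a neighbour. In 437 regions the antisense count, of at least 20 reads, was equal to the sense count of exactly 1 gene under both length limits, and no region matched different genes in the 2 libraries. This held for 414 of the 677 control regions with that many antisense reads (61.2%) and for 53 of 453 with Sni445-HTP (11.7%), and 30 regions were matched in both libraries. Of these genes, 241 were protein-coding, 155 were tRNA genes and 27 were snoRNA genes. Set against the R64 genome by gene name, 296 of the 300 matched genes with an R64 start followed the order of the region numbers, with the chromosomes in alphabetical order of their Roman numerals, so that chromosome IX came after IV. The 4 that did not had at most 88 antisense reads in the library of the match. INT_0_307 among them, matched with 62 reads with Sni445-HTP, had 2495 antisense reads in the control. Its gene YNL042W-B had 610 control sense reads. Such a region is called opposite its gene here. Of the 179 regions matched in the control alone that had at least 20 antisense reads with Sni445-HTP, 88 had exactly the gene's count there as well.

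SUP17, the tRNA gene on chromosome IX from 248850 to 248931, was an example. Its sense count was 47 with Sni445-HTP against 31030 in the control, and the antisense count of INT_0_2368 was 47 and 31030. The gene of snR37, a snoRNA, was matched to INT_0_4636, with 2060 and 201330 reads. SCR1, the RNA of the signal recognition particle, was matched to INT_0_2896 with 1613 and 73324 reads. LSR1, the U2 snRNA, was matched to INT_0_703 with 564 and 63091 reads. INT_0_3437 had 1801 and 347716 antisense reads, equal to the sense counts of SNR10 and of the overlapping frame YGL088W.

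The region numbers INT_0_5814 to INT_0_5838, called the rDNA numbers here, held most of the intergenic reads. Matches to the 5S genes of the ribosomal DNA (rDNA) run from INT_0_5818 to INT_0_5835. The numbers taken in on either side had no exact match. The rDNA of yeast is a tandem array on chromosome XII. RNA polymerase I transcribes from it the precursor of the 18S and 25S rRNAs and of the small rRNA encoded by RDN58. RNA polymerase III transcribes 5S rRNA from the other strand. R64 shows 2 whole copies, with RDN37-1 from 451575 to 458432 and RDN37-2 from 460712 to 467569. Regions with these numbers took 55.3% of the intergenic sense reads with Sni445-HTP against 70.8% in the control, and 75.7% and 69.8% of the antisense reads.

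The 4 regions with most antisense reads were rDNA numbers and had no exact match to a single gene. Only INT_0_5820 was set beside a gene, RDN37-2, whose counts were near its own. INT_0_5820 had 145400 antisense reads with Sni445-HTP against 3868963 in the control, where RDN37-2 had 145396 and 3868466 sense reads. Under the 30 limit the control counts were identical, at 1667083. INT_0_5814, INT_0_5815 and INT_0_5816 followed, with 10297, 38050 and 41945 antisense reads with Sni445-HTP. In the control they had 1271260, 1019909 and 1019586. These 4 regions had at most 11 sense reads in either library.

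Opposite the 6 copies of the 5S gene, the counts of region and gene were equal with Sni445-HTP and in part different in the control. INT_0_5818 and RDN5-1 both had 1485 reads with Sni445-HTP against 101257 in the control. INT_0_5822 and RDN5-2 both had 505 and 11810. For INT_0_5835 and RDN5-6 the counts were 1495 and 1495 with Sni445-HTP, and 107725 and 106602 in the control. In the control INT_0_5824 had 18781 antisense reads where RDN5-3 had 17120 sense reads, and INT_0_5832 had 19471 where RDN5-5 had 18046.

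The rDNA numbers also held the 3 regions with most sense reads of all. INT_0_5821 had 7233 sense reads with Sni445-HTP, on 2679 cDNAs, and 406072 in the control, on 9955 cDNAs. INT_0_5835 had 7037 and 452109 sense reads, and INT_0_5817 had 4264 and 145118. Together they made up 54.5% of the intergenic sense reads with Sni445-HTP against 70.1% in the control. Their ratios of shares were 0.0152 (0.0148 to 0.0155), 0.0132 (0.0129 to 0.0136) and 0.0250 (0.0242 to 0.0258). Without snR4, snR45 and the regions left out, the ratios were 0.505, 0.441 and 0.833.

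For INT_0_5817 and INT_0_5821, a rDNA feature had counts nearly as high, which does not place the regions. The counts of INT_0_5817 were near those of RDN58-2, a gene of that small rRNA, which had 4110 and 141920 sense reads. Those of INT_0_5821 were near the antisense counts of YLR154W-C (TAR1), a frame that lies within the 25S gene on the opposite strand, from 454696 to 455070 in R64, with 6776 and 400688 antisense reads. INT_0_5835 was set beside sequence and not counts: the R64 sequence past RDN5-6 holds a stretch from 489753 to 490545 of chromosome XII that is 98.9% identical over 793 positions to part of RDN37-1, from 451785 to 452577 near the 3′ end of the 25S gene. Since reads with several matching sites were placed at random, these reads cannot be told apart from those of the rDNA repeats.

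**Figure D2:**
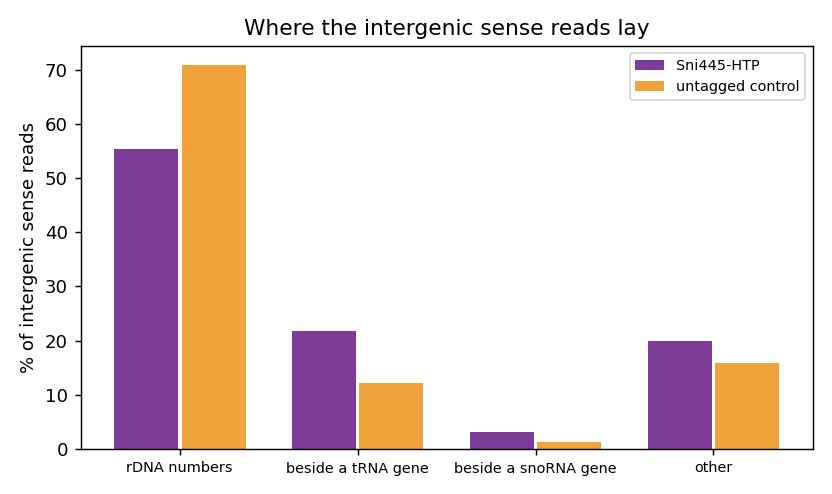
Share of the intergenic sense reads (y axis, percent) by the place of the region (x axis), with bars from 0 for the 1 Sni445-HTP library and the 1 control library. The rDNA numbers held 55.3% and 70.8%, regions beside a tRNA gene 21.7% and 12.1%, regions beside a snoRNA gene 3.10% and 1.20%, and all other regions, INT_0_4569 among them since its neighbour had no exact match, 19.8% and 15.8%.

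Outside the rDNA numbers, the regions beside tRNA genes held most of the sense reads that could be given a place. Of the antisense reads, regions beside matched tRNA genes held 2.80% with Sni445-HTP and 5.37% in the control. Regions beside snoRNA genes held 7.12% and 7.27% of them. In sense reads with Sni445-HTP, the densest regions beside tRNA genes lay beside the arginine tRNA gene tR(UCU). Yeast tRNA genes end before the CCA of the mature tRNA, which an enzyme adds after transcription. All 11 copies of this gene in R64 have the same 72 nt, so a read of the gene alone cannot be given to a copy. The sequence is shown because it is shared by every copy and the copies were counted very differently.

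tR(UCU), all 11 copies: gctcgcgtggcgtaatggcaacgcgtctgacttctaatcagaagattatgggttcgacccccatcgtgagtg

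Of the 11 copies, 7 had between 7987 and 16653 sense reads in the control and 4 had between 91 and 163. For each of the 7, 1 intergenic region of the same chromosome had almost the same number of sense reads, at least 80% of the tRNA's and no more than it in both libraries, and under the 30 limit never more. The search asked for at least 100 control reads and 20 reads with Sni445-HTP on the tRNA, which 2 of the other 4 copies reached, and no such region was found for them. The last 12 bases of the gene and the next 20 bases are shown for every copy, from the R64 genome of RefSeq, with the first base past the gene in capitals. Of the bases shown, only those past the gene differ, and those of II, IV and both copies on X are identical. Bases before the gene were not compared.

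YNCB0015W (II:405878-405949, plus): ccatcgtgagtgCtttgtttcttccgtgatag
YNCD0011W (IV:568882-568953, plus): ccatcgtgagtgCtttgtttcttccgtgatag
YNCG0017W (VII:405470-405541, plus): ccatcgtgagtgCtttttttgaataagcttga
YNCG0038C (VII:828723-828794, minus): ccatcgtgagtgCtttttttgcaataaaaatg
YNCJ0011W (X:355374-355445, plus): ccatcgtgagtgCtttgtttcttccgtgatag
YNCJ0014C (X:374506-374577, minus): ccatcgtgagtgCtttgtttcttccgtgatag
YNCM0004C (XIII:131825-131896, minus): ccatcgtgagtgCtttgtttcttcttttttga
YNCE0010W (V:138666-138737, plus): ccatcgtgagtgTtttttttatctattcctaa
YNCG0032W (VII:736340-736411, plus): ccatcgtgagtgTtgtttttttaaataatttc
YNCK0006C (XI:162487-162558, minus): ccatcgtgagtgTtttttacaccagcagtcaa
YNCM0033C (XIII:747892-747963, minus): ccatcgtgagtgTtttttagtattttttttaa

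The 7 well-counted copies lie on chromosomes II, IV, VII, X and XIII, and by their chromosome and the matched regions around them they are the 7 in which C follows the gene. The 4 poorly counted ones are those in which T follows. In 4 of the former (II, IV and both on X), a tRNA-Asp gene starts after a spacer of 10 nt. What sets the counts of the copies apart was not tested.

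On chromosome X, INT_0_4723 had 3266 sense reads with Sni445-HTP, beside tR(UCU)J1 with 3286, and 7926 in the control, beside 8249. INT_0_4733 had 442 beside tR(UCU)J2 with 470, and 10366 beside 10689. On chromosome II, INT_0_504 had 431 beside tR(UCU)B with 451, and 16301 beside 16653. In reads, INT_0_4723 stands out of the 7 with Sni445-HTP and INT_0_504 is the highest in the control. In cDNAs neither does: INT_0_4723 had 40 with Sni445-HTP, within the 32 to 55 of the 7, and INT_0_504 had 257 in the control, the fewest of 257 to 289.

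On chromosome IV, INT_0_1487 had 301 sense reads with Sni445-HTP beside tR(UCU)D with 316, and 7765 in the control beside 7987. On chromosome VII, INT_0_3491 had 241 beside tR(UCU)G1 with 267, and 11561 beside 11829. INT_0_3823 had 299 beside tR(UCU)G2 with 317, and 8490 beside 8766. INT_0_6362 on chromosome XIII had 281 beside tR(UCU)M2 with 301, and 9231 beside 10374. Between 90.3% and 99.4% of the tRNA's count was on the region with Sni445-HTP, and between 89.0% and 97.9% in the control.

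Read length set these libraries apart. With Sni445-HTP, 3188 of the 3266 sense reads of INT_0_4723 were within the 30 limit, on 9 of its 40 cDNAs. In the control only 7 of its 7926 sense reads were within that limit, on 1 of 273 cDNAs. The other 6 regions had 171 to 361 reads within the limit with Sni445-HTP against 8 to 18 in the control.

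**Figure D3:**
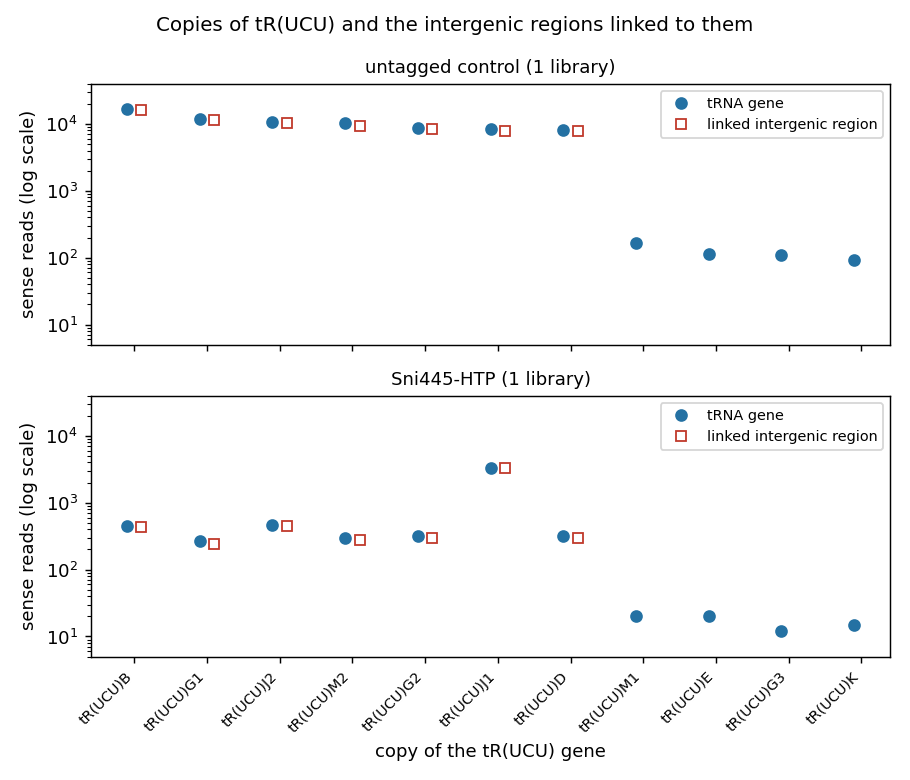
Sense reads (log scale) of the 11 copies of tR(UCU), filled circles, and of the intergenic region linked to each, open squares, in the control (upper panel) and with Sni445-HTP (lower panel), ordered by the control count. The 7 copies with a linked region lie at 7987 or more in the control and the 4 without one lie at 163 or less; tR(UCU)J1 is the highest with Sni445-HTP.

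Other tRNA genes were split in part by the base that follows. In R64, 214 of the 284 tRNA features could be placed, by name or by the matched regions around them. With tR(UCU) left out, 137 of these had at least 100 control reads and a matched region opposite the gene, and for each the region richest in control sense reads within 3 numbers of it was taken. Where none of these had a control sense read, the one richest with Sni445-HTP was taken, if any had reads. This was so for 2 genes followed by C and 37 followed by another base. Where C followed the gene (9 genes), that region held a median of 76.7% of the gene's control count (0 to 98.1%), and at least 80% for 4 genes. Among the 9, tS(GCU)F, tS(GCU)L and tS(GCU)O have the same last 12 bases, as do tI(UAU)D and tI(UAU)L. The 9 are thus not separate cases, and the median is the value of tS(GCU)O. Where another base followed (128 genes), the median was 0.17% (0 to 190%), and 5 genes reached 80%. With Sni445-HTP, over genes with at least 20 reads, the medians were 53.2% (9 genes) and 9.09% (87 genes). These 2 medians rest in part on regions chosen by their Sni445-HTP reads. The pattern was noticed on tR(UCU) and in these counts and is given as a description, and neighbouring regions can also hold reads of another gene.

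The flanks of some of these genes are given to show the shared base, again with 12 bases of the gene and the next one in capitals.

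tN(GUU)K (XI:74624-74697, plus): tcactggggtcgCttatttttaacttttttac
SUF9 (VI:101376-101478, plus): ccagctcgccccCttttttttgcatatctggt
tS(GCU)L (XII:784354-784453, plus): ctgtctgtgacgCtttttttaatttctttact
tS(GCU)F (VI:191513-191613, minus): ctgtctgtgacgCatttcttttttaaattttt
tI(UAU)D (IV:884361-884493, plus): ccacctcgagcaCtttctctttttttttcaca

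INT_0_5060, the fifth richest region in the control, lay 2 numbers from the region opposite the asparagine tRNA gene tN(GUU)K. It had 27104 sense reads in the control, where the tRNA had 27634, and 194 with Sni445-HTP, where the tRNA had 202. INT_0_3064 had 9930 and 107 sense reads in the control and with Sni445-HTP, where SUF9, a proline tRNA gene, had 10715 and 154. INT_0_6066 had 4455 and 20, where tS(GCU)L had 4604 and 32, and INT_0_3126 had 3732 and 50, where tS(GCU)F had 3836 and 94.

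Some genes followed by C were different. The isoleucine gene tI(UAU)D had 7692 control reads and its adjoining region 71, and tI(UAU)L had 6985 and its region 0. EMT4, a methionine tRNA gene, had 835 and 92, and tQ(UUG)D3 had 448 and 0. A region could also be rich beside a gene followed by another base: tF(GAA)H1 had 4577 control reads and INT_0_4215 had 4263, with T after the gene. INT_0_2310 had 16499 control sense reads beside tI(AAU)I1 with 17408, and 164 beside 177 with Sni445-HTP. This gene was not placed to a single R64 copy.

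Of the regions set beside snoRNA genes here, the one richest in sense reads, INT_0_4569, lay on chromosome X. In antisense reads, other regions opposite snoRNA genes held more. INT_0_4568 had 1374 antisense reads with Sni445-HTP against 135089 in the control, where SNR190, a box C/D snoRNA, had 1291 and 134345 sense reads, with equal control counts of 57571 under the 30 limit. INT_0_4569, next in number, had 544 sense reads with Sni445-HTP against 30718 in the control, a ratio of 0.0151 (0.0138 to 0.0164), or 0.502 without snR4, snR45 and the regions left out. In R64, SNR190 (139761 to 139950) and SNR128 (139566 to 139691), the U14 snoRNA, are 69 nt apart on the minus strand. INT_0_4567, on the other side in number, had 121 sense reads with Sni445-HTP against 0 in the control.

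Sense reads were also found next to regions opposite other snoRNA genes. INT_0_8949 had 253 and 13939 sense reads, and INT_0_8948 had 363 and 13939 antisense reads, where SNR41 had 334 and 13938 sense reads. In R64, SNR41, SNR70 and SNR51 form a cluster on chromosome XVI with spacers of 97 and 80 nt. INT_0_5631 had 194 and 7212 sense reads, next to INT_0_5630, whose antisense counts of 2845 and 99230 equalled the sense counts of SNR30, a snoRNA needed for 18S rRNA processing.

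For part of the regions a sense count was the same number as the antisense count of a region within 3 numbers, under both limits. In the control this held for 25 of the 135 regions with at least 100 sense reads, which held 5.49% of the intergenic sense reads. With Sni445-HTP it held for 1 of 31, INT_0_7228, which had 266 sense reads beside 266 antisense reads of INT_0_7227, and 21959 beside 21959 in the control. For another 89 regions in the control and 25 with Sni445-HTP, a neighbour within 3 numbers had at least as many antisense reads as the region had sense reads. Neither held for 21 regions in the control and 5 with Sni445-HTP. These held 35.0% and 24.4% of the intergenic sense reads, with INT_0_5835 among them in both libraries.

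The regions with the smallest ratio of shares were largely of this kind. INT_0_6386 had 7736 sense reads in the control and 0 with Sni445-HTP. The antisense count of INT_0_6385 and the sense count of IMD4, a gene of guanine nucleotide synthesis that carries the snoRNA SNR54 in an intron, were 7736 as well. INT_0_8259 had 7340 control sense reads beside 7340 antisense reads of INT_0_8258. INT_0_878 had 5619 beside 5619 of INT_0_875. INT_0_2368, opposite SUP17, had 1875 sense reads in the control and 1 with Sni445-HTP, beside 1875 control antisense reads of INT_0_2370. With the Sni445-HTP count of 0 set to a floor of 3 counts, the control shares of INT_0_6386, INT_0_8259 and INT_0_878 were 3031-fold, 2875-fold and 2201-fold higher. These values rest on the floor and are no confidence limits. Without snR4, snR45 and the regions left out, they were 91.0-fold, 86.3-fold and 66.1-fold. INT_0_6956, with 5163 control reads on 4 cDNAs, had no neighbour with antisense reads, and YMR317W, a protein-coding gene, had 5163 antisense reads.

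Calls of a lower share followed the background of all features. A region was called lower with at least 100 sense reads in the control and a share with Sni445-HTP of at most 1/4 of it. Of all features past that minimum, 98.2% (895 of 911) were called, and of the intergenic regions 134 of 135. Without snR4, snR45 and the regions left out in the totals, 42.6% of all features were called (388 of 911) and 62 of the 135 regions. Over regions with at least 100 reads in both libraries (21 regions), the median ratio of shares was 0.0225, where all features (145) had 0.0290. A share so near that of all features is not particular to the regions.

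The share was called higher, with at least 100 sense reads with Sni445-HTP and at least 4 times the control's share, for 21.2% of all features (38 of 179) and for 10 of the 31 regions. Without snR4, snR45 and the regions left out, it was 31.3% (56 of 179) and 11 of 31, INT_0_4723 being added. Of the 10, 7 had no control sense read and the other 3 had 5 to 7. They had at most 43 cDNAs each.

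INT_0_5290 was first among them with 625 sense reads with Sni445-HTP, all within the 30 limit and on 4 cDNAs, against 0 in the control. With the control count of 0 set to a floor of 3 counts, its share was 177-fold higher (60.4 to 862). No region within 3 numbers had more than 1 antisense read. INT_0_5746 had 201 sense reads on 40 cDNAs against 0, and lay 1 number from the region opposite AHP1, a peroxiredoxin gene. INT_0_265 had 190 sense reads on 43 cDNAs against 0, and lay 2 numbers from the region opposite SNR56, a box C/D snoRNA gene with 231 sense reads with Sni445-HTP. INT_0_3870 had 164 on 23 cDNAs against 0, beside the region opposite TDH3, the glyceraldehyde-3-phosphate dehydrogenase gene. INT_0_6769 had 151 on 19 cDNAs against 0, 2 numbers from the region opposite SNR11. With the same floor, the ratios for these 4 were 57.0 (19.2 to 279), 53.9 (18.2 to 264), 46.5 (15.6 to 228) and 42.8 (14.4 to 210).

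Of the other regions called higher, 3 had control reads. INT_0_8371 had 199 sense reads on 11 cDNAs against 6 in the control, INT_0_2216 had 125 against 5, and INT_0_1143 had 124 against 7, with ratios of 28.2 (12.7 to 77.8), 21.3 (8.88 to 66.7) and 15.1 (7.10 to 38.3). INT_0_4322, beside the region opposite SNR32, had 100 against 0, and INT_0_4567 had 121 against 0. In both libraries the sense counts of INT_0_8371 equalled the sense counts of SUT801, which is listed among the stable unannotated transcripts, and the antisense counts of YOR381W-A. Those of INT_0_2216 equalled the antisense counts of UBP7, a ubiquitin protease gene. None of the 5 regions had more than 31 cDNAs with Sni445-HTP.

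Each cDNA of a region was read far more often in the control than in the Sni445-HTP library. Over regions with at least 10 cDNAs, the median was 2.56 reads per cDNA with Sni445-HTP (461 regions, 1.00 to 403) and 32.5 in the control (731 regions, 1.08 to 654). Protein-coding genes had medians of 3.20 and 42.1 and tRNA genes 1.94 and 20.8, so the difference between the libraries was not limited to intergenic regions. Of the cDNA numbers summed over all features, the intergenic regions held 24.4% with Sni445-HTP and 36.1% in the control. These numbers take in both directions, and a cDNA that overlaps several features adds to each. With Sni445-HTP, INT_0_5820 had 26175 cDNAs and RDN37-2 had 26169. The 2 values are thus not shares of sense reads.

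**Figure D4:**
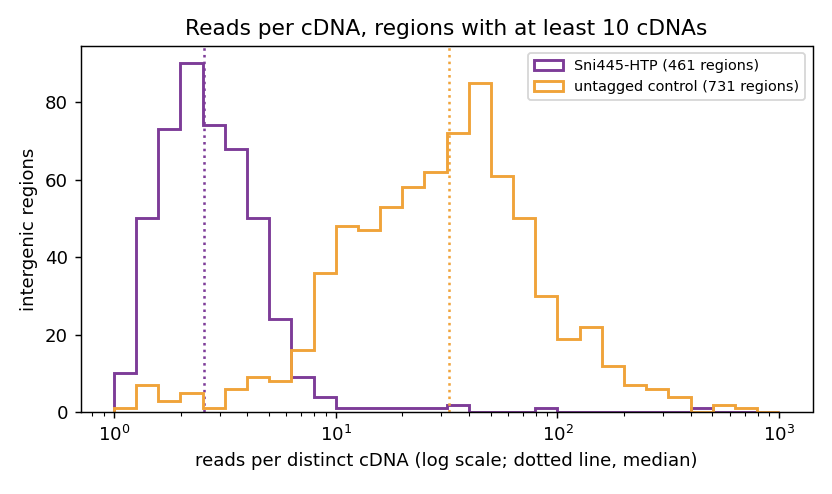
Number of intergenic regions (y axis) by reads per distinct cDNA (x axis, log scale), for regions with at least 10 cDNAs, as outlines for the 1 Sni445-HTP library and the 1 control library. The dotted medians lie at 2.56 and 32.5, and the control distribution reaches 654.

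Many regions rested on very few cDNAs. Fewer than 10 cDNAs were recorded for 1973 of the regions listed with Sni445-HTP (81.1%) and for 464 in the control (38.8%). In the control, 12 such regions had at least 1000 reads each, 36546 in all. INT_0_1195 had 11397 sense reads there on 5 cDNAs, all within the 30 limit, and COP1, a gene of the COPI vesicle coat, had 11397 antisense reads. With Sni445-HTP the largest antisense count outside the rDNA numbers was that of INT_0_7289, 6446 reads on 16 cDNAs. It was equal to the sense count of RPS7B, a ribosomal protein gene, while the control had 0.

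Short reads were more frequent with Sni445-HTP on the intergenic regions, as they were over all features. Within the 30 limit were 53.3% of the sense reads (52.8 to 53.8) with Sni445-HTP against 39.8% (39.8 to 39.9) in the control. Over the sense counts of all features they were 56.3% and 41.2%. For antisense reads the shares were 54.2% and 39.7% on the regions, and 47.1% and 40.3% over all features. In the rDNA numbers the shares of sense reads were 37.7% and 40.9%, beside matched tRNA genes 46.9% and 17.2%, and beside snoRNA genes 83.3% and 55.8%.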

How the data were processed

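The members and the lists were chosen with earlier results of these data known. The deposited counts give, for each feature, the reads on its strand, those on the other strand and the distinct cDNAs. The authors demultiplexed with 1 mismatch, checked reads with FastQC 0.12.1, aligned them to their EF2.59 genome with Novoalign 3.09.00, placing reads with several sites at random, and counted with pyReadCounters. How cDNAs were collapsed is not given in the sources used here. Random placement spreads reads over identical copies.

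Shares with exact Clopper-Pearson intervals (95%) and ratios of shares with exact conditional binomial intervals were computed in Python 3.11.15 with scipy 1.17.1, and TMM scaling with edgeR 4.0.16. A count of 0 was replaced by 3 counts in that library. Named were the 5 regions with most sense, antisense or cDNA counts in each library, the 5 largest and 5 smallest ratios past 100 reads, and genes matched to them. Other regions and genes, among them those beside tRNA and snoRNA genes, and the tRNA rules were chosen after their values were seen. R64 of RefSeq gave gene places, sequences and, with blastn 2.17.0, similar stretches. Its coordinates are not those of EF2.59. Of the regions linked to a tRNA gene by their counts, 3 whose numbers lay more than 5000 nt from the gene were dropped. The scripts were tested on simulated data. Positions of reads within regions were not analysed here.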

Additional observations from a re-analysis of the deposited data

How the results depend on the processing

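The intergenic share was below that of the control under every alternative tried. The alternative in cDNAs takes in both directions and counts a cDNA on each feature it overlaps. In order of Sni445-HTP and control, it was 0.119% and 6.03% under the 30 limit, 0.155% and 11.3% of mapped reads, 4.27% and 6.35% without snR4, snR45 and the regions left out, 0.129% and 20.6% without rRNA features in the denominator, 0.734% and 35.2% for sense and antisense reads together, 24.4% and 36.1% in cDNAs, and 0.0562% and 1.82% without the rDNA numbers, an alternative chosen after seeing the data. The ratio of shares was 0.0198, 0.0137, 0.672, 0.00626, 0.0209, 0.676 and 0.0309 in the same order, 0.707 with TMM scaling and 0.819 with median-ratio scaling, which shifted all log2 ratios by 5.13 and 5.34. Of 135 regions, 61 were called lower with TMM, 59 with median-ratio scaling and 62 without snR4, snR45 and the regions left out. Under the 30 limit 68 were called lower, and with a minimum of 1 read 246 of 485. Regions called higher numbered 43 of 94 with a minimum of 20 reads and 78 of 878 with 1, and 10 to 15 under the other alternatives. The share over all features was computed only for the main rule and without snR4, snR45 and the regions left out. The other counts are thus not read as a result about the regions. Regions with at least 2 sense reads were 27.9% and 33.6%, with at least 10 they were 8.26% and 20.8%, and under the 30 limit 33.6% and 27.5% had a sense read. The share of sense reads within the 30 limit was 64.3% and 37.3% without the 5 richest regions, and 38.8% and 18.9% in cDNAs of regions without antisense reads. Matches fell to 99 with a tolerance of 1%, since more genes then lie within reach of a count. The causes were otherwise not tested. The medians of reads per cDNA stayed within 1.5 times of their values under the alternatives run. No paired analysis was possible because each strain has 1 library. Reads of repeated sequences, regions without coordinates and regions with few cDNAs set the limits here.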
